A study of Homo sapiens with 8 samples.

Results

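Box H/ACA small nucleolar RNAs with fragments in the deposited table, 9 by name, were examined in RNA immunoprecipitation sequencing of RPS6, the S6 protein of the ribosome's small subunit, in 4 human cancer cell lines. The 9 names were SNORA73B, SNORA74A, SNORA53, SNORA23, SNORA5A, SNORA5C, SNORA71C, SNORA67 and SNORA76. They were chosen by their fragment numbers, with their ratios of RIP to input known, so the ratios of these RNAs are given below as a description and carry no test. The names stood on 19 of the 57756 entries of the table. SNORA67 had 8 entries and SNORA76 had 4, whereas the other 7 names had 1 entry each. Fragments were found on 11 of the 19 entries, and 8 entries were at 0 in every library. For each of the 9 names, the entry with the most fragments is described, and the second SNORA67 and SNORA76 entries with any signal held 1 fragment each.

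Each cell line gave 1 input library of total RNA and 1 RIP library precipitated with an RPS6 antibody, so that a group held 4 libraries from 4 lines. The lines were Hep3B (liver carcinoma), HCT116 (colon carcinoma), DU145 (prostate carcinoma) and SW1990 (pancreatic carcinoma), with no genotype or drug difference between input and RIP. Values of Hep3B and HCT116 were deposited apart from those of DU145 and SW1990. Differences between these pairs of lines thus cannot be told apart from differences between the deposits. No library of a control antibody was analysed here, so the ratio of RIP to input also holds any RNA retained without RPS6. One label field of the liver pair gave Huh7, another liver cancer line, whereas its titles and the study's text gave Hep3B. All 7 liver markers were highest in the input of this pair (AFP, 291 FPKM; ALB, 5030 FPKM), which does not tell these lines apart. By the same measure, 0 of 6 colon markers were highest in HCT116, 1 of 5 prostate markers in DU145 and 2 of 6 pancreatic markers in SW1990. CDX2, a colon marker, stood at 86.6 FPKM in SW1990 against 6.25 in HCT116, and the pancreatic markers KRT7 and MUC1 were highest in DU145. At 1 FPKM or more, the labelled line expressed 2 of 6 colon markers in HCT116, 1 of 5 prostate markers in DU145 and 4 of 6 pancreatic markers in SW1990. The prostate marker KLK3 was listed at 0 in DU145. Recovered depth was 35.8 to 54.21 M fragments for inputs and 34.63 to 42.61 M for RIP libraries (M, 1000000). At this depth a count of 0 allowed up to 0.0838 FPM (fragments per M) in an input and 0.0866 in a RIP library (3 fragments). All intervals below cover counting error only.

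Box H/ACA RNAs fold into hairpins joined by an H box and followed by an ACA triplet near the 3′ end. They work in the nucleolus with dyskerin, NHP2, NOP10 and GAR1, and most guide the conversion of uridine to pseudouridine in ribosomal RNA. A few, among them the U17 RNAs to which SNORA73B belongs, take part in the cleavage of precursor ribosomal RNA instead. Nearly all human members lie in introns of other genes and are released by splicing and exonuclease trimming.

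RefSeq (GRCh38.p14) placed SNORA73B inside both SNHG3 and RCC1, and SNORA74A inside both SNHG4 and MATR3. SNORA53 lay inside SLC25A3, SNORA23 inside IPO7, SNORA5A and SNORA5C inside TBRG4, SNORA71C inside SNHG17 and SNORA67 inside EIF4A1. In the coordinates of the deposited table (hg19), the locus of SNORA73B was chr1:28832454-28865812 and was shared by 5 genes. That of SNORA74A was chr5:138282408-138667360, with 9 genes, and that of SNORA53 was chr12:98987368-98995946, with 2. SNORA23 stood at chr11:9406168-9469673, SNORA5A and SNORA5C at chr7:45139698-45151646, and SNORA71C at chr20:37049234-37063996. These are loci of overlapping genes and not the ends of the snoRNAs.

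The start regions of the first 2 loci are shown because a coding and a noncoding host begin there close together or at the same base. The RNAs of the first pair, RCC1 and SNHG3, differed in the RIP libraries (below), and of the second pair MATR3 alone was measured. In the first sequence the capitals mark the 100 bases from the start of SNHG3 to the base before the start of RCC1. The second sequence opens at the single start that RefSeq gives for both MATR3 and SNHG4. Both are plus-strand sequences of RefSeq GRCh38.p14.
RCC1 and SNHG3, chr1:28505793-28506042: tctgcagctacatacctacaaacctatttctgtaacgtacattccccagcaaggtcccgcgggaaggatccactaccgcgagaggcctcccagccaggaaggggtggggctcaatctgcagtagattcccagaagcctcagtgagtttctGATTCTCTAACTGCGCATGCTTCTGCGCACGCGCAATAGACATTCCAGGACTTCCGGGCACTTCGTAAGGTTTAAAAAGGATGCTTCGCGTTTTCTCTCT
MATR3 and SNHG4, chr5:139274071-139274100: cggggcggggttcccctcggctcccggctg

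The 9 names were first checked against the size of the RNA they stand for. The deposited FPKM (fragments per kilobase per M) and the fragment number of an entry together imply an effective length, known up to 1 scaling factor per library. This length was 26.4 to 36.6 bases for SNORA73B, 35.0 to 38.4 for SNORA74A, 45 to 74 for SNORA53 and 17.5 to 25.3 for SNORA23, whose RefSeq lengths were 205, 200, 250 and 189 bases. It was 6.23 to 9.22 bases for SNORA5A, 7.03 to 9.52 for SNORA5C and 7.13 to 8.77 for SNORA71C, with RefSeq lengths of 134, 137 and 138 bases. All 7 implied lengths were therefore well under the length of the RNA, most of all for the 3 shortest. One fragment was worth 1.94 to 4.36 FPKM on these 3 entries, against 0.529 to 0.981 FPKM on SNORA73B. In all 19 pairs of libraries with fragments on both sides, the implied length was smaller in RIP (0.627 to 0.954 of input). The median over all 19921 tested genes was also smaller, at 0.654 to 0.736 of input. The scaling factor of a library moves all genes alike, so the 19 pairs are not separate observations of these RNAs. In these 19 pairs, FPKM ratios were accordingly higher than fragment ratios. For SNORA5A in SW1990 the direction differed, at 0.963 of input by fragments and 1.20 by FPKM.

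The entries named SNORA67 and SNORA76 did not hold to their labels. The main SNORA67 entry lay in a locus on chromosome 17 (chr17:7465191-7536700) shared by 15 genes, EIF4A1 among them. Its implied length was 4918 to 6973 bases in 7 libraries and 481 in the SW1990 RIP, against 137 bases for the RefSeq RNA. None of its 8 values was a whole number of fragments (tolerance 0.01), whereas 64 of 64 values of the other 8 names were. It is called the SNORA67-named entry below. The main SNORA76 entry (chr17:62223329-62223836, 508 bases, shared with SNORD104) carried the description of small nucleolar RNA host gene 25. Its implied length ran from 8.71 to 104 bases, and RefSeq lists SNORA76 as another name of SNORA50C, 133 bases long and outside SNHG25. The file's own descriptions of the other 7 names gave the H/ACA box class.

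**Figure D1:**
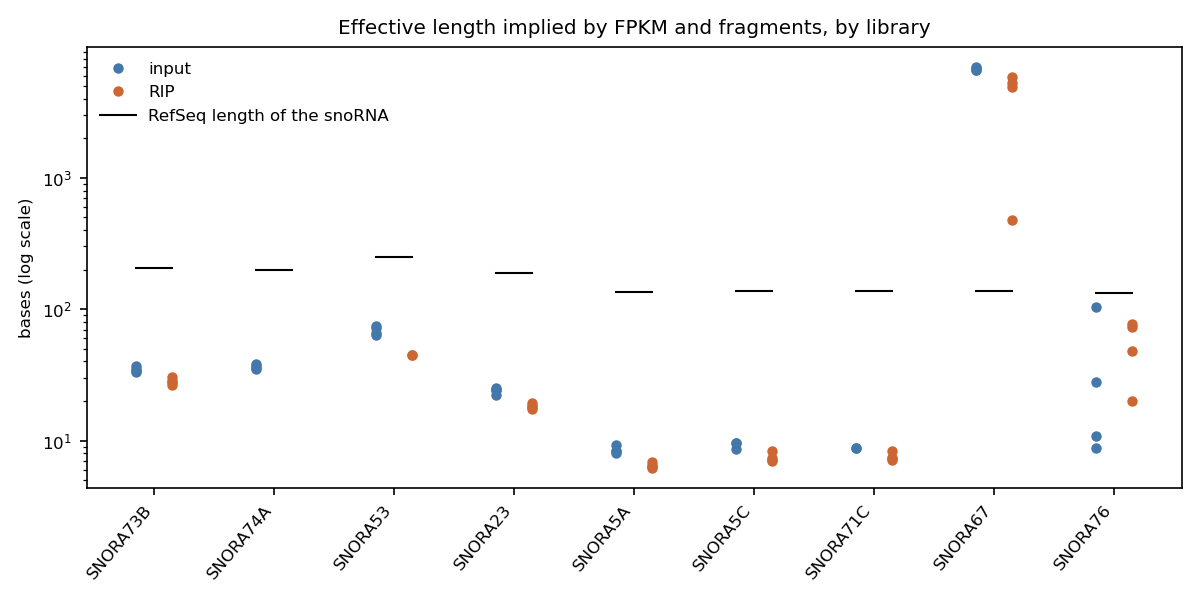
Effective length in bases (log scale) implied by FPKM and fragments for each of the 9 names, with 1 point per input (blue) and RIP (orange) library that had fragments, and a bar at the RefSeq length of the RNA. Points lie under the bar for 8 names, and the SNORA67-named entry lies above its bar of 137 bases in every library.

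Together the 9 names held 2806 of the 3964 fragments on all 406 entries with a SNORA name, or 70.8%. Of these, 68.1% fell on the SNORA67-named entry, and the 7 names with 1 entry held 738 fragments over 8 libraries. For 4 names, SNORA73B, SNORA53, SNORA67 and SNORA76, the mean of the rounded estimated counts reached the minimum of 10 needed to enter the comparison of RIP and input across all genes. SNORA53 was just inside it, at 10.0, and entered through the rounding, since its unrounded mean was 9.96. SNORA23 was just outside, at 9.38 rounded and 9.36 unrounded. Of the other SNORA names, SNORA40 and SNORA59B also passed.

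SNORA73B, the U17-type RNA, had the most fragments of the 7 snoRNA-sized entries. In the order Hep3B, HCT116, DU145, SW1990, its inputs held 272, 51, 36 and 54 fragments, and its RIP libraries held 2, 5, 5 and 7. Input and RIP did not overlap: the lowest input stood at 0.664 FPM and the highest RIP at 0.182. Among inputs, Hep3B was highest at 7.60 FPM (95% exact Poisson interval 6.72 to 8.56), followed by SW1990 at 1.46, HCT116 at 1.12 and DU145 at 0.664. The intervals of SW1990 and HCT116 overlapped, as did those of HCT116 and DU145. RIP libraries were lower than inputs by 132-fold (Hep3B), 9.54-fold (HCT116), 4.89-fold (DU145) and 8.01-fold (SW1990) per M fragments. The mean log2 ratio of FPKM + 1 was -3.30 ± 2.04 (SD, n = 4). For the differences between inputs, a lower level in such bulk libraries does not tell fewer cells with an RNA from less of it per cell.

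SNORA74A, also known as U19, was found only in inputs. Its inputs held 40, 11, 12 and 7 fragments in Hep3B, HCT116, DU145 and SW1990, and all 4 RIP libraries were at 0. Over the 4 lines, 70 fragments stood against 0, so the RIP level was at least 20.6-fold lower, with the floor of 3 fragments taken over the 4 RIP libraries. The Hep3B input held 40 of the 70 fragments, and without that pair the bound was 8.61-fold. Another entry at the same locus, named SNORA74, held 7, 2, 29 and 8 fragments in the inputs and 0 in each RIP library. SNORA74B, a related RNA from another locus, held 9 input fragments and 1 RIP fragment.

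SNORA53, from an intron of the mitochondrial phosphate carrier gene SLC25A3, held 41, 16, 22 and 7 input fragments in the same order of lines. The RIP libraries held 1, 3, 0 and 0, so input and RIP did not overlap. In Hep3B the RIP level was 0.0252 of input per M fragments (exact interval 0.000623 to 0.149), and in HCT116 it was 0.201 (0.0374 to 0.701). The mean log2 ratio of FPKM + 1 was -2.35 ± 0.98 (SD, n = 4).

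SNORA23, encoded in an intron of the importin gene IPO7, differed between lines. Inputs held 27, 23, 6 and 4 fragments in the same order of lines, and RIP libraries held 1, 8, 9 and 1. Hep3B and HCT116 were lower in RIP, at 0.0383 of input (exact interval 0.000935 to 0.232) and 0.372 (0.144 to 0.861). DU145 stood at 2.21 (0.703 to 7.55) and SW1990 at 0.241 (0.00489 to 2.43), both with intervals that include 1. Input and RIP levels overlapped, and the mean log2 ratio of FPKM + 1 was -1.11 ± 2.09 (SD, n = 4). The spread between lines exceeded the mean. Hep3B and HCT116 were also deposited apart from DU145 and SW1990, so line and deposit cannot be told apart here.

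The 3 shorter RNAs, SNORA5A, SNORA5C and SNORA71C, were near the limit of counting. SNORA5A, from an intron of TBRG4, held 3, 1, 2 and 2 input fragments and 4, 4, 1 and 2 RIP fragments. SNORA5C, from another intron of TBRG4, held 3, 0, 1 and 1 input fragments and 9, 2, 2 and 4 RIP fragments. SNORA71C, from SNHG17, held 1, 0, 5 and 0 input fragments and 3, 2, 7 and 8 RIP fragments. The exact interval of the RIP to input ratio included 1 in every line for SNORA5A and SNORA5C and in 3 of 4 lines for SNORA71C. The exception was SW1990, where 0 input against 8 RIP fragments gave a lower bound of 1.64. On the log2 (FPKM + 1) scale, mean ratios were 0.77 ± 1.0 for SNORA5A, 2.02 ± 0.59 for SNORA5C and 2.61 ± 1.69 for SNORA71C (SD, n = 4). SNORA5B, at the same locus as SNORA5A and SNORA5C, was at 0 in every library. Among the near copies of SNORA71C, SNORA71D held 6 input and 15 RIP fragments, SNORA71A held 3 and 2, and SNORA71B held 6 and 5. Reads shared between such copies could be assigned to any of them.

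The SNORA67-named entry held 309, 326, 196 and 138 input fragments and 300, 364, 194 and 82.7 RIP fragments. Per M fragments, the RIP level was 1.0 of input in Hep3B (exact interval 0.852 to 1.18), 1.20 in HCT116, 1.46 in DU145 and 0.577 in SW1990 (0.434 to 0.763). By FPKM the SW1990 ratio was 7.97, since its RIP library was the one with an implied length of 481 bases, and the direction thus depended on the scale. The SNORA76-named entry held 17, 18, 21 and 53 input fragments and 7, 5, 9 and 25 RIP fragments. Its RIP to input ratio was 0.426, 0.297, 0.632 and 0.454 per M fragments, lower in 4 of 4 lines, and the interval lay below 1 in HCT116 and SW1990. By FPKM the ratio was 0.249, 0.422, 0.0885 and 0.199, so its size depended on the scale. The implied length of this entry was longer in RIP than in input in Hep3B, DU145 and SW1990.

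**Figure D2:**
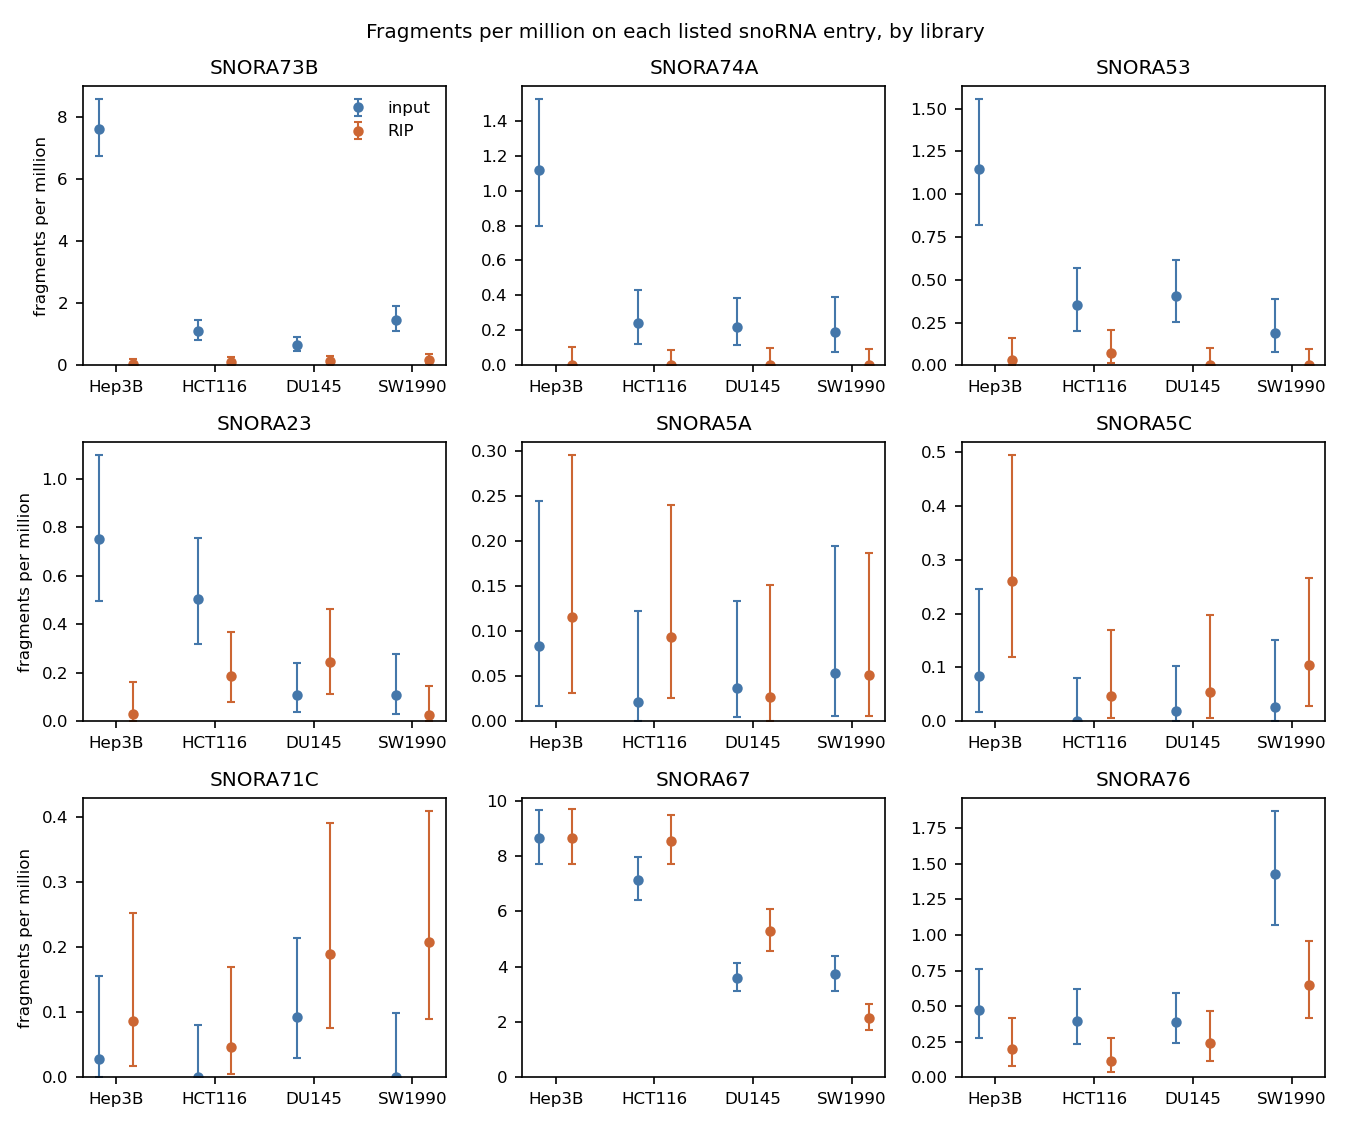
FPM on the main entry of each name, with input (blue) and RIP (orange) libraries of the 4 lines and 95% exact Poisson intervals as bars; each panel has its own linear axis from 0. SNORA73B, SNORA74A and SNORA53 lie lower in every RIP library, Hep3B is the highest input for these, and the SNORA5A, SNORA5C and SNORA71C panels rest on at most 9 fragments a library.

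The RNAs of 189 bases or more differed from the shorter ones when their fragments were summed. This division was made after the values were seen and was not tested. The 4 longer RNAs (SNORA73B, SNORA74A, SNORA53 and SNORA23) held 380, 101, 76 and 72 input fragments and 4, 16, 14 and 8 RIP fragments. The RIP to input ratio was 0.0109, 0.169, 0.271 and 0.107 per M fragments, and all 4 intervals lay below 1. The sum was uneven: SNORA73B held 272 of the 380 Hep3B input fragments. In DU145, SNORA23 held 9 of the 14 RIP fragments, and its own ratio there was 2.21. The 3 shorter RNAs held 7, 1, 8 and 3 input fragments and 16, 8, 10 and 14 RIP fragments. Their ratio was 2.36, 8.56, 1.84 and 4.49, with intervals above 1 in HCT116 and SW1990 only. The SNORA74 entry described above went against this division: its implied length, 8.69 to 9.62 bases, was that of the shorter RNAs, yet it held 46 input fragments and 0 in RIP. The short SNORA71A (3 input and 2 RIP fragments) and SNORA71B (6 and 5) were not higher in RIP when summed over the lines. SNORA71D (6 and 15) and the longer SNORA74B (9 and 1) went with the division.

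In the fit across all genes, 51.4% of the 19921 genes tested differed between RIP and input (edgeR, adjusted p under 0.05), 26.5% higher and 24.9% lower in RIP. Of the 4 names tested, 2 were called lower, SNORA73B (log2 fold change -3.43, SE 0.85) and SNORA53 (-4.16, SE 1.11), and 0 were called higher. The SNORA67-named entry stood at 0.36 (SE 0.33) and the SNORA76-named entry at -0.83 (SE 0.67). Nothing is read from these calls, since the names were chosen with the ratios known. The call of SNORA53 rested on the Hep3B pair, without which its mean count fell under the minimum.

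The genes that hold the snoRNAs were then compared with them. Of 8 such genes tested, 4 rose in RIP, 2 fell and 2 did not pass the test, beside 26.5% higher and 24.9% lower over all genes. TBRG4, a mitochondrial RNA regulator of the FASTK family, rose most: inputs held 3715, 5210, 3260 and 3133 fragments, and RIP libraries 17480, 18091, 9486 and 12748. Its groups did not overlap, and its log2 fold change was 2.41 (SE 0.19, edgeR adjusted p = 1.27e-05). EIF4A1, the RNA helicase of the cap-binding complex, rose by 0.80 (SE 0.21, adjusted p = 0.0089). SLC25A3 rose by 0.60 (SE 0.20, adjusted p = 0.0282), though in HCT116 its ratio was 0.970 by fragments and 1.60 by FPKM, and RCC1, the nucleotide exchange factor of Ran, rose by 0.57 (SE 0.19, adjusted p = 0.0270). The calls of SLC25A3 and RCC1 were each lost without any of 3 cell line pairs (adjusted p up to 0.126 and 0.101). IPO7 (-0.09, SE 0.21, adjusted p = 0.734) and the noncoding SNHG17 (-0.16, SE 0.20, adjusted p = 0.538) did not pass, and both values turned above 0 on the FPKM scale.

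Both hosts that fell belonged to the loci whose start regions are printed above. SNHG3, a noncoding spliced RNA, held 8782, 5450, 17206 and 19466 input fragments and 627, 545, 610 and 962 RIP fragments. Its groups did not overlap, and it fell by 3.57 on the log2 scale (SE 0.26, edgeR adjusted p = 1.25e-05), lower in 4 of 4 lines. RCC1, which starts 100 bases downstream, was higher in RIP in 4 of 4 lines. MATR3, coding for the nuclear matrix protein matrin 3, held 11360, 12853, 15317 and 14010 input fragments and 3347, 2706, 2428 and 2404 RIP fragments. It fell by 1.79 (SE 0.20, adjusted p = 4.99e-05). SNHG4 was not analysed here.

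SNORA73B was set against each of its hosts. Against RCC1, the difference in log2 (FPKM + 1) ratio was -7.17 for Hep3B, -3.54 for HCT116, -2.49 for DU145 and -3.30 for SW1990. Against SNHG3 it was -3.53 for Hep3B, -0.02 for HCT116, 0.70 for DU145 and 0.19 for SW1990. On this FPKM scale SNORA73B stayed within 1 log2 unit of SNHG3 in 3 lines and fell further in Hep3B. By fragments it did so in HCT116 only. Counted per 10000 SNHG3 fragments, it went from 309.7 (input) to 31.9 (RIP) for Hep3B, 93.6 to 91.7 for HCT116, 20.9 to 82.0 for DU145 and 27.7 to 72.8 for SW1990. On the log2 scale these changes were -3.28, -0.03, 1.97 and 1.39. The rises were in DU145 and SW1990, which were deposited apart from Hep3B and HCT116, so line and deposit cannot be told apart. The implied length of SNHG3 in RIP was 0.295 to 0.624 of input.

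The other pairs varied as follows. SNORA53 stood below SLC25A3 in 4 of 4 lines, by a mean log2 difference of -3.18 ± 1.14 (SD, n = 4). This mean became -5.06 with a pseudocount of 0.1. On the FPKM + 1 scale SNORA74A stood below MATR3 in 4 of 4, by -1.85 ± 1.56. Its RIP libraries were all at 0, so the size was set by the pseudocount: -4.99 with 0.1, and -0.81 ± 1.39 with FPM + 0.05. In HCT116, DU145 and SW1990 the upper bound of its RIP to input ratio (0.426, 0.530 and 0.668) lay above the MATR3 ratio (0.225, 0.234 and 0.165). SNORA23 was below IPO7 in 3 of 4 lines (-1.45 ± 2.29), with DU145 the exception at 1.40. SNORA5A was below TBRG4 in 4 of 4 lines (-1.66 ± 0.91) and SNORA5C in 3 of 4 (-0.42 ± 0.52), both on at most 9 fragments a library. By fragments SNORA5A was above TBRG4 in HCT116, at 4.28 of input (exact interval 0.423 to 211) against 3.71. SNORA71C was the one RNA above its host in 4 of 4 lines (2.52 ± 2.16). Its HCT116 and SW1990 inputs were at 0, so the size depended on the pseudocount: 4.20 with 0.1, and 1.74 ± 0.88 with FPM + 0.05. In Hep3B, HCT116 and DU145 the lower bound of its RIP to input ratio (0.249, 0.201 and 0.564) lay below the SNHG17 ratio (0.911, 0.426 and 0.805). In SW1990 the lower bound was 1.64 against 0.766. For SNORA5C the mean difference turned to 0.53 with a pseudocount of 0.1 in place of 1. Each snoRNA lies in an intron, where fragments of unspliced host RNA also fall, and how the counting treated these is not given in the sources used here. Their part in these values was not tested.

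**Figure D3:**
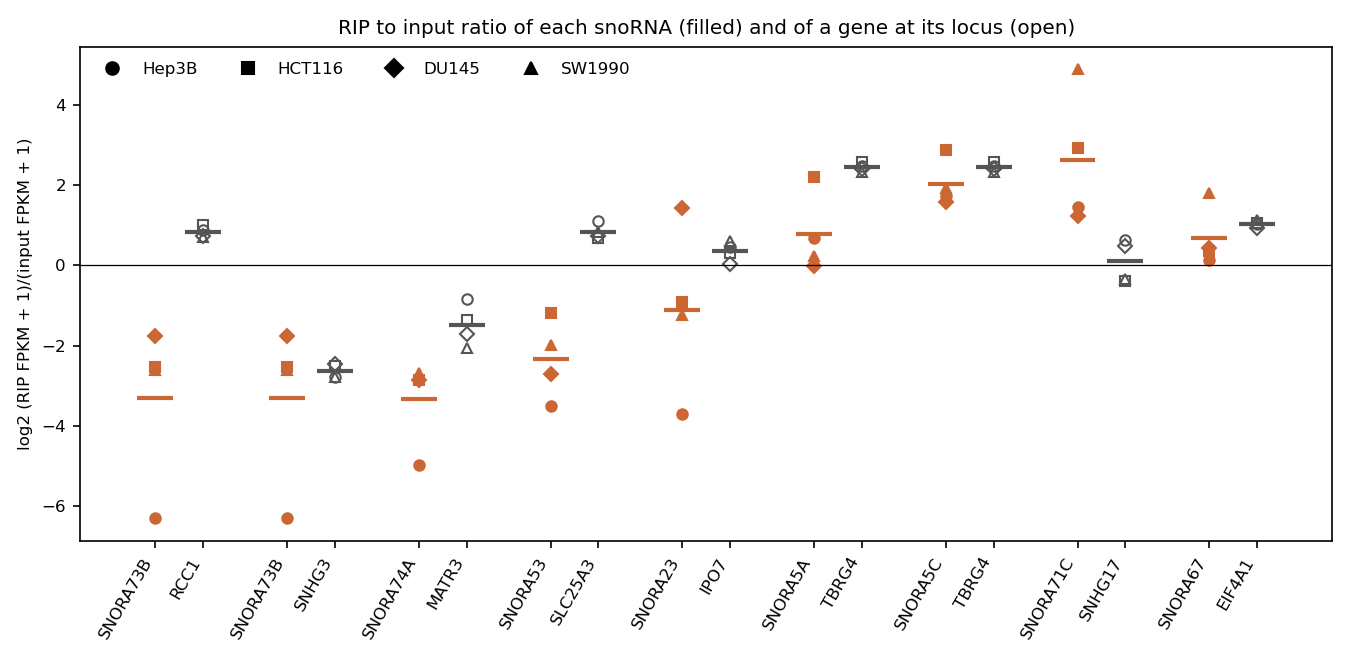
Log2 ratio of RIP to input FPKM + 1 in each cell line (marker shape) for 8 names (filled, orange) and the gene around each (open, grey), with lines at the means. SNORA73B is drawn beside both RCC1 and SNHG3: its points lie under all those of RCC1, and those of HCT116, DU145 and SW1990 lie within 1 log2 unit of SNHG3.

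Around the SNORA67-named entry, 9 of the 14 other genes of the locus were tested, of which 5 rose and 0 fell, beside 26.5% higher and 24.9% lower over all genes. The 5 included EIF4A1, already counted among the hosts, and SENP3-EIF4A1 (edgeR adjusted p = 0.0364), an entry named after SENP3 and EIF4A1. They are thus not 5 separate observations, and MPDU1 was near the threshold (adjusted p = 0.0428). FXR2, a relative of the fragile X protein, rose by 1.71 (SE 0.29, edgeR adjusted p = 7.16e-04), and SENP3, a nucleolar SUMO protease, by 1.03 (SE 0.19, adjusted p = 0.00114). At the SNORA74A locus, SIL1, an exchange factor of the endoplasmic reticulum, rose by 1.37 (SE 0.23, adjusted p = 6.28e-04), opposite to MATR3.

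The mRNAs of the proteins that bind, assemble and trim H/ACA RNAs were examined next. Of 14 genes tested, 4 rose in RIP, 3 fell and 7 did not pass, with a median log2 fold change of -0.20 against -0.05 over all genes. The share called was thus close to the 51.4% of all genes (26.5% higher, 24.9% lower), also among the 4 core protein genes, of which 0 rose and 2 fell. GAR1 held 19.1, 24.1, 25.3 and 33.1 FPM in inputs and 0.722, 6.15, 6.63 and 6.99 in RIP, lower in 4 of 4 lines. It fell by 2.24 (SE 0.45, edgeR adjusted p = 0.00201). NOP10 fell by 1.81 (SE 0.25, adjusted p = 1.62e-04), from 42.4 to 67.0 FPM in inputs to 7.97 to 16.5 in RIP, without overlap. DKC1, the gene of the pseudouridine synthase dyskerin, stood at -0.36 (SE 0.18, adjusted p = 0.125), and NHP2 at -0.55 (SE 0.22, adjusted p = 0.0550).

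Of the 6 assembly genes, 2 rose and 1 fell. RUVBL2, an ATPase of the R2TP assembly complex, rose by 1.89 (SE 0.20, edgeR adjusted p = 3.83e-05), and TCOF1, coding for the nucleolar protein treacle, rose by 1.24 (SE 0.22, adjusted p = 9.79e-04). NOLC1, whose product Nopp140 binds H/ACA particles, fell by 1.29 (SE 0.21, adjusted p = 4.88e-04). RUVBL1, the partner ATPase, stood at -0.15 (adjusted p = 0.564), and the early assembly factors NAF1 and SHQ1 did not pass. Of the 4 trimming genes, 2 rose and 0 fell: TOE1, a 3′ deadenylase, by 1.31 (SE 0.20, adjusted p = 2.85e-04), and EXOSC10, an exonuclease of the nuclear exosome, by 1.12 (SE 0.28, adjusted p = 0.00692). The deadenylase gene PARN and the poly(A) polymerase gene PAPD5 did not pass. Every fold change of this list was also obtained without the cell line as a block, where NOP10 alone kept its call.

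**Figure D4:**
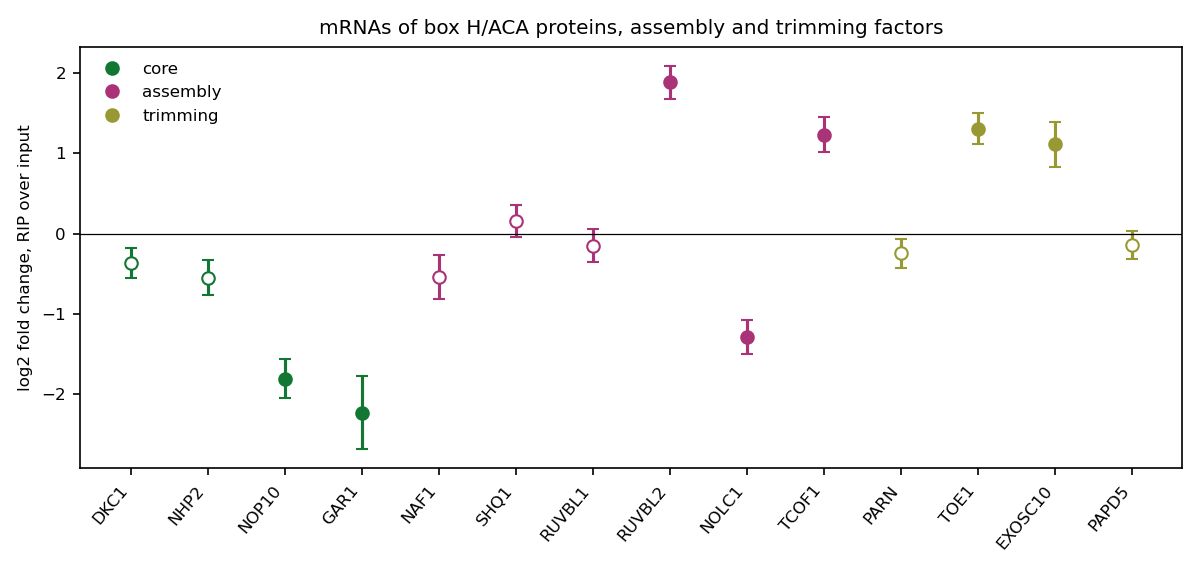
Log2 fold change of RIP over input (edgeR, points) with its SE (bars) for 14 genes of core H/ACA proteins (green), assembly factors (purple) and trimming factors (olive), filled where the adjusted p was under 0.05. GAR1, NOP10 and NOLC1 lie below 0 among the filled points, and RUVBL2, TOE1, TCOF1 and EXOSC10 above.

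The genes whose pattern over the 8 libraries was most like that of each tested name were found by Pearson's r of log2 (FPKM + 1) against 19920 other genes, as a description. For SNORA73B these were the noncoding CTA-292E10.6 (r = 0.986), UBAC2-AS1 (0.969) and RP11-218F10.3 (0.960). CTA-292E10.6 had 6.67 FPKM in the Hep3B input and was listed at 0 in its RIP library, the same extremes as SNORA73B. For SNORA53 the nearest was NDUFV3 (r = 0.984), a subunit gene of respiratory complex I, which had 18.7 FPKM in the Hep3B input and 5.39 in its RIP library. The nearest to the SNORA67-named entry was AC007292.3 (0.982) and to the SNORA76-named entry RABL2A (0.985). FPKM of both named entries also follows their uneven implied lengths. The SNORA67-named entry had its highest FPKM, 4.47, in the SW1990 RIP library, where its fragments were fewest (82.7). The points share libraries and their depth.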

How the data were processed

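RNA was sequenced from 4 RPS6 RIP and 4 input libraries. The RIP used a Magna RIP kit and libraries a TruSeq Stranded Total RNA kit. Per the labels, reads were aligned to hg19 with TopHat2 2.0.9 (CASAVA 1.8 is also named); the counting tool is not given in the sources used here. The deposited values are FPKM and estimated counts per gene, which the authors had scaled by 1 factor per library. Those of Hep3B and HCT116 were deposited apart from those of DU145 and SW1990. Dividing the estimated counts by that step gave recovered fragments, of which 78.0 to 91.8% were whole (tolerance 0.01). Rounded estimated counts with a mean of at least 10 were tested with edgeR 4.0.16 in R 4.3.3 (quasi-likelihood test, TMM, cell line as block, Benjamini-Hochberg over all genes, threshold 0.05). Libraries of the same line deviated together (correlation 0.829 to 0.876, against at most -0.04 between lines). FPKM ratios used a pseudocount of 1. Alternatives used DESeq2 1.42.0, limma 3.58.1 on log2 FPKM, other minimums and each pair left out. Intervals are exact 95% Poisson or binomial intervals. Each line is 1 pair of libraries, so p-values measure the spread between lines. RNAs, gene lists and markers were chosen with earlier results of these data known. The genes named were those lists, the genes at each RNA's locus, and, for tested names, the 3 genes with the highest r. The names' own contrast is described without a test.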

Additional observations from a re-analysis of the deposited data

Results flagged for a closer look

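In all, 3 values stood apart from the other lines of their group among 51 groups of 4 libraries, where chance gives about 1 in 20. SNORA74A in the Hep3B input, at 4.97 on the log2 (FPKM + 1) scale, lay above the other inputs, at 2.68 to 2.87. With all RIP libraries at 0, its log2 ratio of RIP to input in Hep3B was likewise -4.97, against -2.87 to -2.68 in the other lines. SNHG3 in the DU145 RIP library, at 5.27, lay below the other RIP libraries, at 5.56 to 5.62.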

How the results depend on the processing

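Without the replicate block, which ignores the pairing by cell line, 1427 genes were called higher and 1344 lower in RIP (5282 and 4960 with it). Under that fit 3 of the 8 hosts were called (6 with the block), 0 of the H/ACA protein genes were called higher (4) and 1 lower (3). Of the 4 names tested, 1 was called lower (2). With limma on log2 (FPKM + 0.1), 3264 genes were called lower. With limma and a pseudocount of 1 or 0.1, 2 of the 9 names were called higher and 4 lower. At a pseudocount of 1 this stood beside 4769 higher and 3371 lower of 16900 genes. The 2 higher names, SNORA5C and SNORA71C, held 5 and 6 input fragments in all, and nothing is read from these calls. A minimum mean of 50 counts left only SNORA73B and the SNORA67-named entry to be tested. Of these SNORA73B was called lower, beside 4690 of 15438 genes. Without any minimum, SNORA74A (log2 fold change -6.85, SE 1.77) was called lower as well as SNORA73B and SNORA53, beside 5629 of 38022 genes. Leaving out 1 cell line pair gave 4448 to 4808 genes higher, 4084 to 5083 lower, and 1 to 2 names lower, with 1 left without the Hep3B pair. The median over all genes was -0.05 with edgeR and 0.13 with limma at a pseudocount of 1. On that FPKM scale, values near 0 turned sign with a pseudocount of 1 or 0.1: PAPD5 at 0.25 or 0.27, DKC1 at 0.0030 or 0.0029, RUVBL1 at 0.24 or 0.25, SNHG17 at 0.10 under both and IPO7 at 0.35 under both. With 1 pair left out SNHG17 ran from -0.33 without Hep3B to 0.031 without HCT116. NHP2 passed with DESeq2 (adjusted p = 0.0491), without a minimum, with a minimum of 50 and without the Hep3B pair. Without any minimum on counts, SLC25A3 (0.0584) and RCC1 (0.0697) lost their calls. Of all other fold changes recomputed, 232 kept their direction and side of the threshold. The causes were not tested. Counts of a few fragments limit SNORA5A, SNORA5C and SNORA71C, for which 1 fragment moves the ratio.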

Other observations

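Outside the 9 names, SNORA40 and SNORA59B were the other SNORA entries that reached the minimum mean count. Their implied lengths were 1745 to 2676 bases for SNORA40 and 237 to 408 for SNORA59B, against RefSeq lengths of 127 and 152. As with the SNORA67-named entry, the values below are those of the named entries and are not read as levels of the snoRNAs. SNORA40 held 9, 54, 49 and 35 fragments in the inputs of Hep3B, HCT116, DU145 and SW1990 and 9, 46, 71 and 152 in their RIP libraries. Its RIP to input ratio per M (1000000) fragments was 1.03 in Hep3B (exact interval 0.364 to 2.94), 0.911 in HCT116, 2.14 in DU145 and 4.18 in SW1990 (2.88 to 6.22). SNORA59B held 57, 9, 10 and 7 input fragments and 20, 14, 7 and 11 RIP fragments, with a ratio of 0.363 in Hep3B (0.206 to 0.613) and 1.51 in SW1990 (0.536 to 4.60). Hep3B thus had the highest SNORA59B input, as it had for SNORA73B, SNORA74A, SNORA53 and SNORA23. For SNORA23 the input intervals of Hep3B (0.497 to 1.10 FPM) and HCT116 (0.320 to 0.757) overlapped.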
